A study of Mus musculus with 2 samples.

Results

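Fmnl2, Fchsd2, Secisbp2l, Clcn5 and Prrg1 are 5 long genes whose nascent transcription was much higher after 1 hr of interleukin-4 (IL-4). They were chosen by their names, on the gain seen between the same 2 libraries that are described here, out of 11054 genes named in either library, of which 8879 had a value in both. All gains given here are therefore descriptions of the choice and were not tested. The assay was global run-on sequencing (GRO-seq), in which engaged RNA polymerases of isolated nuclei extend their transcripts with a bromine-labelled nucleotide and the labelled RNA is captured and sequenced. The cells were wild-type (WT) bone marrow-derived macrophages (BMDMs) of C57BL/6 mice aged 8-12 weeks, differentiated for 6 days with L929 supernatant, a source of the growth factor M-CSF. The control group received no IL-4, and the other group received IL-4 at 20 ng/ml for 1 hr. Run-on reactions were made in duplicate and pooled, so each group was 1 library (n = 1) and no value has a replicate error.

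The submitters deposited, for each library, the stretches of strand-specific run-on signal that HOMER called as transcripts. Each transcript has a position, a score with 1 decimal, and the name of the gene whose start lies nearest. A polymerase that enters a long gene leaves such a chain of transcripts along the gene body, and the farthest one shows how far nascent RNA was called along the gene. IL-4 acts on macrophages through its receptor and the transcription factor STAT6 and drives alternative polarization, a state linked to helminth immunity and tissue repair. Of the 5 proteins, FMNL2 is a formin that elongates actin filaments at the cell edge, and FCHSD2 is an F-BAR and SH3 protein of actin assembly and clathrin-mediated endocytosis. SECISBP2L is the paralogue of SECISBP2, which binds the RNA element that directs selenocysteine insertion. CLCN5 is a chloride/proton exchanger of endosomes, and PRRG1 is a small transmembrane protein with a Gla domain, a segment that vitamin K-dependent carboxylation modifies.

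Fmnl2 (ENSMUSG00000036053.17) spans chr2:52857860-53133804 on the plus strand of GRCm38 (mm10), or 275.9 kb, by GENCODE. Fchsd2 (ENSMUSG00000030691.15) spans chr7:101092863-101284405 on the plus strand. Its RefSeq start, from which distances are counted here, lies at 101108775, which leaves 175.6 kb to the gene end. Secisbp2l (ENSMUSG00000035093.16) is the shortest, at 45.9 kb, on the minus strand of chr2:125736986-125782870. Clcn5 (ENSMUSG00000004317.14) spans chrX:7153810-7319358 on the minus strand, 165.5 kb, and has an internal RefSeq start 130.6 kb into the gene. Prrg1 (ENSMUSG00000047996.16) spans chrX:78449613-78583896 on the minus strand, 134.3 kb.

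The starts from which these chains of transcripts run are shown by the 100 bases just upstream of each RefSeq start (RefSeq, GRCm38.p6), read 5′ to 3′ on the gene's own strand, with CpG dinucleotides in capitals. The second Prrg1 start lies within 100 bases of the first and is not shown.
Fmnl2, chr2:52857768-52857867, plus strand: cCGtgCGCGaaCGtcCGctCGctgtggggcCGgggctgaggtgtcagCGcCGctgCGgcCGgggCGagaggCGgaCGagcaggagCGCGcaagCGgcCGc
Fchsd2, chr7:101108675-101108774, plus strand: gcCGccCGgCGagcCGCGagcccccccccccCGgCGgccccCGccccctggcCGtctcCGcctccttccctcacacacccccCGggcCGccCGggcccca
Secisbp2l, chr2:125782871-125782970, minus strand: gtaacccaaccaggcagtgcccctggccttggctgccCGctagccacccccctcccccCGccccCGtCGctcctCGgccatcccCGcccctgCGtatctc
Clcn5, first start, chrX:7319359-7319458, minus strand: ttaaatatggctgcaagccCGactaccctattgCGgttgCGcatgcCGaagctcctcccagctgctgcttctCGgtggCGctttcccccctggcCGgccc
Clcn5, internal start, chrX:7188715-7188814, minus strand: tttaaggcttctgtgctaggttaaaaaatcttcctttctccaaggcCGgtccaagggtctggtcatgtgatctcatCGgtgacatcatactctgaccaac
Prrg1, first start, chrX:78583898-78583997, minus strand: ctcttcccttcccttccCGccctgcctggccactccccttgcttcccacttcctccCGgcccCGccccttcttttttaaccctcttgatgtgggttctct

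The 300-base windows around these starts, from 250 bases before to 50 after, held 49 CpG dinucleotides in Fmnl2, 42 in Fchsd2 and 15 in Secisbp2l. The first Clcn5 start had 19 and its internal start 6, and the 2 overlapping Prrg1 windows had 4 and 14. The median over the 32851 windows of all genes was 7. STAT factors bind palindromes made of TTC and GAA, and for STAT6 a spacer of 4 bases is typical. TTC and GAA with any 4 bases between them occurred in 0 of the 7 windows of these genes on either strand, and in 6.95% of all windows. With a spacer of 3 bases the palindrome was also found in 0 of the 7, against 8.30% of all windows. These counts say only that the letters are not in these windows.

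The cells carried macrophage signal in both libraries. All 6 macrophage markers (Csf1r, Adgre1, Cd68, Itgam, Spi1 and Mertk) had own-strand transcripts, with highest scores of 0.9 to 5.6 in control and 0.6 to 4.6 after IL-4. The fibroblast, T cell and B cell markers had none, nor had Ly6g, while S100a8 had 2 transcripts in each library and Mpo had 1 in control. The IL-4 library held 51365 transcripts of median length 312 bases and the control library 43122 of median length 227 bases. The median score was 0.2 in the IL-4 library and 0.3 in the control library. Sequencing depth is unknown from these files, so a stretch without a call had no detectable transcript at an unknown depth. More and longer calls, with a lower median score, in the IL-4 library moved with every gain below, and their part in it was not tested.

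By name, 20 control transcripts and 246 IL-4 transcripts carried one of the 5 names. The nearest start is not always the gene that is being transcribed, so the transcripts on the gene's own strand inside its annotated span were also counted, and these numbered 26 in control and 340 after IL-4. The difference between name and position was large in the distal parts of the genes. Of the 146 IL-4 transcripts inside Fchsd2, 70 carried the name of Atg16l2, a neighbouring gene. The distal end of Secisbp2l had 9 transcripts named Shc4. Inside Clcn5, 16 transcripts carried the name Mir532, 4 Mir500 and 3 Mir362. No transcript on the opposite strand was called inside any of the 5 genes after IL-4, and 1 was called in control, in Fchsd2.

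Every one of the 5 genes had a higher gene value after IL-4, where the gene value is the highest score among the transcripts carrying its name. The log2 ratios below are centred on the median gene, and the range in brackets is what rounding of the scores to 1 decimal allows. Fmnl2 scored 0.5 in control and 3.3 with IL-4, which gives 3.10 [2.94 to 3.27]. Fchsd2 went from 0.5 to 2.5, or 2.70 [2.53 to 2.88], but with its own-strand transcripts of any name the control value was 0.9 and the ratio 1.84. The Prrg1 value was 0.2 in control, and 1.4 with IL-4, or 3.19 [2.81 to 3.65].

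Those 3 genes stood near the top of the 8879 genes, at rank 4 for Prrg1, rank 7 for Fmnl2 and, by name, rank 12 for Fchsd2. Secisbp2l went from 0.3 to 0.9, which gives 1.96 [1.66 to 2.30] and rank 65. Clcn5 went from 0.4 to 0.9, or 1.55 [1.30 to 1.82] and rank 209. The 0.9 of Secisbp2l came from a transcript on the other strand outside the gene, and its highest own-strand score was 0.8. All 5 genes were at least 2-fold higher, a count fixed by the choice of the genes, where 8.06% of the 8879 genes and 7.66% of the 2623 genes of at least 40 kb were. The median over the 5 genes was 2.70. Taking the transcript nearest the start in place of the highest left 3 genes at least 2-fold higher, but in Clcn5 and Prrg1 it set transcripts at different places side by side. For Clcn5 these were a control transcript 128.6 kb into the gene, with a score of 0.3, and an IL-4 transcript at 130.5 kb, with 0.2. Over that control transcript itself the IL-4 score was 0.7. The highest score by name also set different places side by side in Clcn5 and Prrg1, as it did in Secisbp2l. For Clcn5 these were 108.4 kb in control and 20.6 and 29.4 kb after IL-4, and over that control transcript the IL-4 score was 0.8. For Prrg1 they were 32.5 kb in control and 40.8 kb after IL-4, and over the control transcript the IL-4 score was 0.5.

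**Figure D1:**
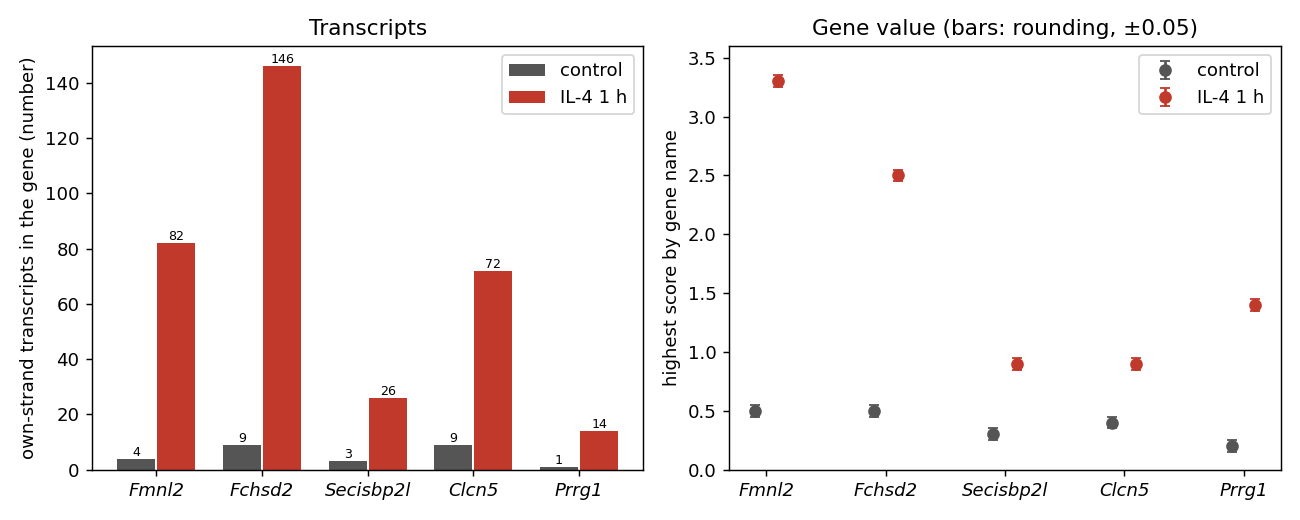
Number of own-strand transcripts inside each gene (left, bars from 0) and gene value, the highest score by gene name (right, points with bars for rounding to 1 decimal), in control (grey) and after 1 hr of IL-4 (red), 1 library each. Fchsd2 had the most transcripts after IL-4, 146, and Fmnl2 the highest gene value, 3.3, while all control values lay at or below 0.5.

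Fmnl2 had 4 own-strand transcripts in control and 82 after IL-4. The control transcripts covered 0.239% of the gene and the IL-4 transcripts 12.8%. After IL-4, 1 transcript was annotated to exon 1 and the other 81 to intron 1 of 26, and none to a later intron. The scores were mostly low, with a median of 0.2, and the highest, 3.3, was a 769-base transcript 56.4 kb from the start.

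The covered share of Fmnl2 fell with distance after IL-4. It was 43.6% in the first 20 kb, 37.1% from 20 to 40 kb, 33.8% from 40 to 60 kb, 19.7% from 60 to 80 kb, 24.9% from 80 to 100 kb and 15.1% from 100 to 120 kb. Over 1141 genes of at least 100 kb the IL-4 share also fell, from 4.73% in the first 20 kb to 2.41% between 80 and 100 kb. Their control share fell from 2.73% to 1.22%. In Fmnl2 the share between 120 and 140 kb was 2.90%, from a transcript that ended at 120.7 kb and a lone one at 139.5 kb on a SINE element. No transcript was called in the remaining 136.1 kb, or 49.3% of the gene. Control had single transcripts at the start, at 56.4 kb, at 83.6 kb and, in intron 9, at 218.9 kb. The last of these, 88 bases long with a score of 0.4 and on a simple repeat of TTTTG units, was farther out than any IL-4 transcript.

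In Fmnl2 the first part of the gene up to its midpoint was 25.4% covered after IL-4 and the part beyond it 0.267%. Among 1055 genes of at least 100 kb with an own-strand IL-4 transcript, 21, Fmnl2 included, had a first part covered at least as much, and Fmnl2 was the one of these 21 with less than 1% of the second part covered. That limit was chosen after the values were seen and no test was made. The median over the 1055 genes was 0.938% for the first part and 0.408% for the second.

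**Figure D2:**
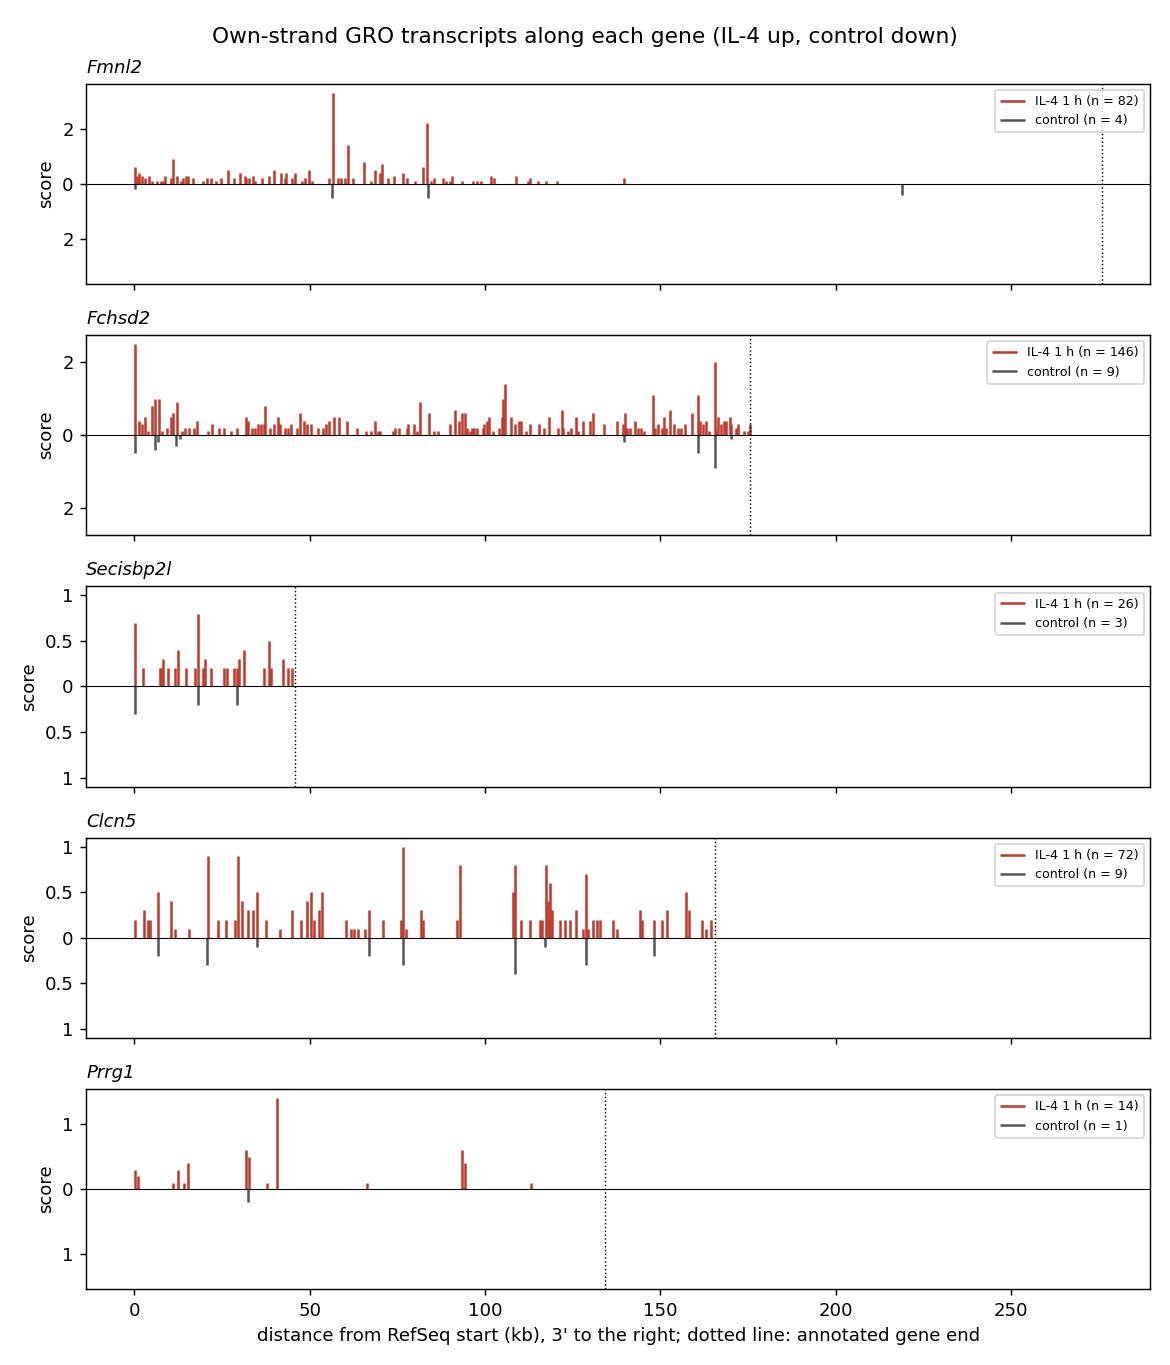
Score of each own-strand transcript (vertical lines) against its distance from the RefSeq start in kb, for the 5 genes, with the IL-4 library drawn upward and the control library downward, and the annotated gene end as a dotted line. The IL-4 transcripts reach the end of Fchsd2, Secisbp2l and Clcn5, stop near the middle of Fmnl2, and are sparse in Prrg1.

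Fchsd2 was transcribed through to its end. It had 9 own-strand transcripts in control and 146 after IL-4, which covered 0.918% and 32.9% of the annotated span. Over the 175.6 kb from the RefSeq start, which is shorter than the annotated span, the first part up to the midpoint was 36.3% covered after IL-4. The second part was 35.4% covered. The share was 42.9% in the first 20 kb, had its lowest value, 21.4%, from 60 to 80 kb, and was 53.4% beyond 160 kb.

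Transcripts after IL-4 were called in 16 of the gene's introns, with 30 in intron 3 and 33 in intron 8, and 3 were annotated to exon 20, the last of one isoform. The farthest ended 175.6 kb from the start, in the 3′ UTR. The transcript at the start had a score of 0.5 in control and 2.5 after IL-4, with lengths of 404 and 678 bases. Signal also ran on past the gene. After IL-4, 8 transcripts on the same strand lay within 20 kb beyond the annotated end, from 1.49 to 11.2 kb out, with scores of 0.1 to 0.3 and over no annotated gene of that strand, and control had none there. A transcript in intron 15, 165.5 kb from the start in control, had a score of 0.9 in control and 2.0 after IL-4. It carries the name Atg16l2, and these are also the gene values of Atg16l2 in the 2 libraries.

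Secisbp2l was covered evenly over its 45.9 kb. It had 3 own-strand transcripts in control and 26 after IL-4, and these covered 1.23% and 25.1% of the gene. The share after IL-4 was 22.8% in the first 20 kb, 26.7% from 20 to 40 kb and 27.2% in the last stretch. The transcript at the start had scores of 0.3 in control and 0.7 after IL-4. The farthest control transcript lay in intron 11 and ended 29.5 kb from the start, and the farthest IL-4 transcript lay in the 3′ UTR, in exon 18, and ended at 45.1 kb.

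After IL-4, 2 further transcripts began 0.121 and 1.94 kb beyond the end of Secisbp2l. A separate group lay upstream of its start, where 6 plus-strand transcripts between chr2:125791718-125799897, 9.01 to 16.9 kb from the start, were called after IL-4 and none in control. Their scores were 0.2 to 0.9, and they run in the opposite direction to Secisbp2l.

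Clcn5 had 9 own-strand transcripts in control and 72 after IL-4. The covered share rose from 0.985% to 14.3% with IL-4 and was nearly equal in the 2 parts of the gene, at 14.1% and 14.5%. In 20-kb bins it ranged from 5.16%, between 80 and 100 kb, to 21.2%, between 120 and 140 kb, where the internal start lies. Most IL-4 transcripts were in intron 2 (33) and intron 3 (20) of 13. At the first start, control had no transcript in the first kb and IL-4 had 1, with a score of 0.2. Beside the internal start, an IL-4 transcript at 130.5 kb also had a score of 0.2. Transcripts after IL-4 lay on both sides of the internal start, including the part upstream that only the long isoform holds. Control transcripts also lay on both sides. Which start was used was not tested. The farthest IL-4 transcript ended 164.4 kb from the first start, and 1 more lay 0.381 kb beyond the annotated end.

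Intron 2 of Clcn5 holds a cluster of microRNA hairpins on the gene's own strand. They are shown because the chain of IL-4 transcripts runs through this stretch, 70.9 to 81.6 kb from the first start, though not over every hairpin. The mature sequences are from RefSeq (GRCm38.p6), 5′ to 3′, with the seed, bases 2 to 8, in capitals.
mmu-miR-500-5p: aAUCCUUGcuaucugggugcuuagu
mmu-miR-362-5p: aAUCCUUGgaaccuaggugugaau
mmu-miR-501-5p: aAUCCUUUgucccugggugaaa
mmu-miR-500-3p: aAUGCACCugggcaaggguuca
mmu-miR-501-3p: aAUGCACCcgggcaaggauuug
mmu-miR-188-5p: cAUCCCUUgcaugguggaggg
mmu-miR-532-3p: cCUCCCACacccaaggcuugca
The first 2 of these share a seed, and so do the 3p arms of miR-500 and miR-501. After IL-4 the hairpin of Mir362 was covered over all its 65 bases, by a transcript with a score of 0.1, and that of Mir532 over 42 bases, by one with a score of 0.2. The hairpins of Mir500, Mir501 and Mir188 lay between called transcripts. In control no base of the 5 hairpins was covered. After IL-4 the highest own-strand score inside Clcn5, 1.0, lay next to the Mir362 hairpin, 76.6 kb from the start, where control had 0.3. The transcript there carries the name Mir362. In control the highest own-strand score, 0.4, lay at 108.4 kb. GRO-seq measures the primary transcript, so these values say nothing of mature microRNA levels.

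Prrg1 had the fewest transcripts, 1 in control and 14 after IL-4. The covered share was 0.105% in control and 2.62% after IL-4. Within 1 kb of the start, 2 transcripts were called after IL-4, the higher with a score of 0.3, and none in control. The share after IL-4 was 9.07% in the first 20 kb and 3.61% from 20 to 40 kb, and between 0.545% and 1.99% in the bins from 40 to 120 kb. The 14 transcripts lay in intron 1 (10), intron 2 (3) and intron 3 (1), and the farthest, with a score of 0.1, ended 113.4 kb from the start. The highest, 1.4, was a 109-base transcript in intron 1, 40.8 kb from the start, with no control transcript over it. The one control transcript lay on a simple repeat 32.5 kb from the start, and without simple repeats and low-complexity sequence Prrg1 had no control value.

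**Figure D3:**
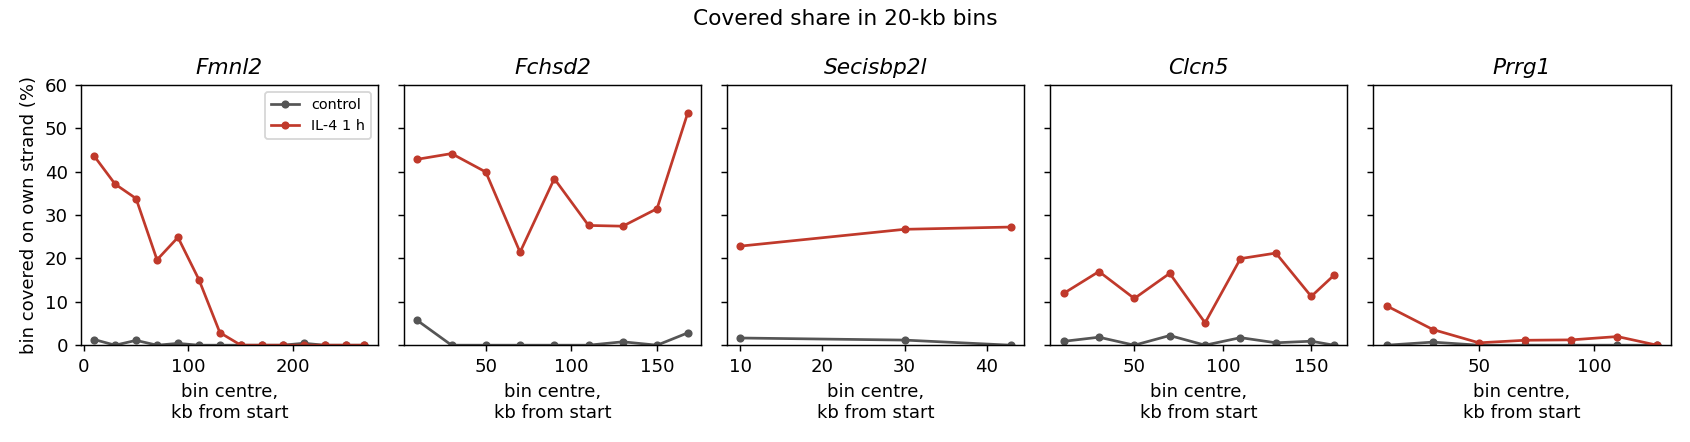
Share of each 20-kb bin covered by own-strand transcripts (%) against the centre of the bin in kb from the RefSeq start, in control (grey) and after 1 hr of IL-4 (red), with the last bin of each gene shorter. The IL-4 share falls from 43.6% to 0 along Fmnl2, stays at or above 21.4% along Fchsd2, and the control share does not exceed 5.71% in any bin.

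Transcripts that were present in control were found again at the same places after IL-4. Of the 26 own-strand control transcripts, 24 (92.3%) were overlapped on the same strand by an IL-4 transcript, and the IL-4 score was higher for 22 of these and equal for 2. Over the whole control library, 62.6% of transcripts were overlapped by an IL-4 transcript, which had the higher score for 23.0% of these. Of these 26998 control transcripts, 14605 had a lower IL-4 score over them and 6184 an equal one. The 5 genes were chosen for their gain, so nothing is read from their difference from the whole library. In Fmnl2 the 2 highest IL-4 scores, 3.3 and 2.2, lay over the control transcripts of 0.5 at 56.4 and 83.6 kb. In the other direction, 229 of the 246 IL-4 transcripts named for the 5 genes (93.1%) had no control transcript over them, which was the case for 48.1% of all IL-4 transcripts. By gene this share was 96.3% for Fmnl2, 94.9% for Fchsd2, 92.3% for Prrg1, 91.3% for Secisbp2l and 86.0% for Clcn5.

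Many of the transcripts in these introns lay on repeat elements. The share annotated to a repeat was 65.4% of the 26 control transcripts and 40.6% of the 340 IL-4 transcripts, against 28.1% and 26.0% of all transcripts in the 2 libraries. By gene after IL-4 it was 24.4% in Fmnl2, 26.9% in Secisbp2l, 44.4% in Clcn5, 48.6% in Fchsd2 and 57.1% in Prrg1. The shares over all transcripts take in those outside introns, and intron transcripts alone were not compared. The part of repeats in the scores was not tested.

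The 5 genes were chosen for their gain, so high places among the long genes come with the choice and were not tested. Apart from Prrg1 in the gain of covered share, they lay high in both measures of coverage. The covered share rose by 32.0 percentage points in Fchsd2, 23.9 in Secisbp2l, 13.3 in Clcn5, 12.6 in Fmnl2 and 2.51 in Prrg1, with a median of 13.3. The median over the 3189 genes of at least 40 kb with an own-strand transcript in either library was 0.247 percentage points, and 65.7% of them had a gain above 0. For this gain Fchsd2 was at rank 10 of 3189, Secisbp2l at rank 25, Clcn5 at rank 82, Fmnl2 at rank 95 and Prrg1 at rank 488. Score times length, summed over the gene span, was 52.2-fold higher after IL-4 in Fmnl2, 41.3-fold in Fchsd2, 35.5-fold in Prrg1, 23.1-fold in Secisbp2l and 22.0-fold in Clcn5, with a median log2 ratio of 5.15. These placed at ranks 3, 6, 8, 10 and 11 of the 2684 long genes with a sum in both libraries, of which 17.5% were at least 2-fold higher. The median log2 ratio of those 2684 genes was 0.00. In the 5 genes the control sums rested on few transcripts. They ranged from 28.2 in Prrg1, from 1 transcript on a simple repeat, to 601.1 in Fchsd2, from 9 transcripts.

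The reach along the gene was also compared. The farthest own-strand transcript was farther from the gene start after IL-4 in 4 of the 5 genes, the exception being Fmnl2, and in 52.8% of the 2684 long genes. In Prrg1 it moved from 32.6 to 113.4 kb, in Secisbp2l from 29.5 to 45.1 kb and in Clcn5 from 148.2 to 164.4 kb. In Fchsd2, counted from the GENCODE gene start, it moved from 186.3 to 191.5 kb.

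**Figure D4:**
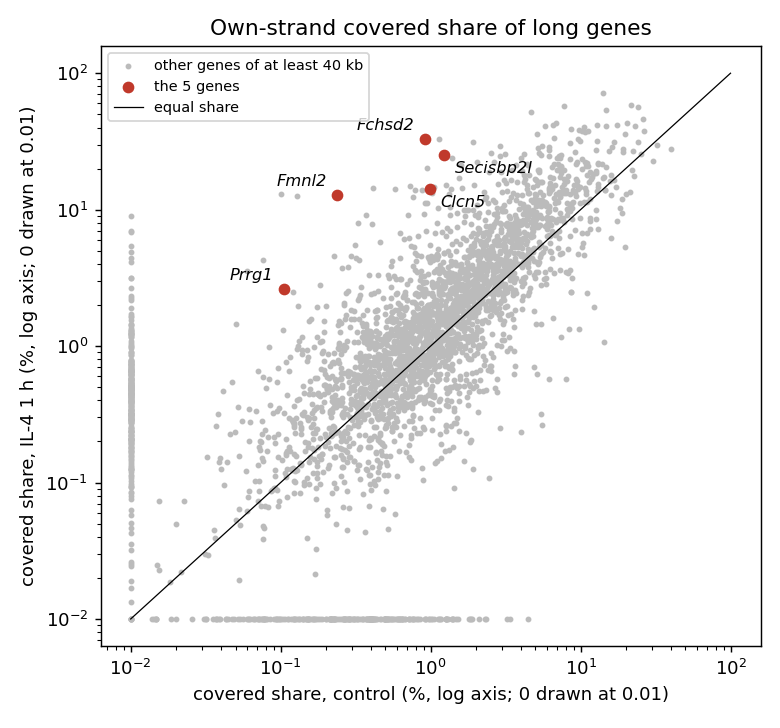
Own-strand covered share (%) of genes of at least 40 kb in control (horizontal axis) and after 1 hr of IL-4 (vertical axis), both log axes with 0 drawn at 0.01, with the line of equal share. The 5 genes (red) lie above the line among 3189 genes (grey), from Prrg1 at 0.105% and 2.62% to Fchsd2 at 0.918% and 32.9%.

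The long genes whose covered share rose the most, the 5 genes aside, were Atp6v0a1, Plxnd1, Mrc1, Ski and Fam20c. Atp6v0a1, a subunit of the vacuolar proton pump, went from 14.2% to 71.9% covered. Mrc1, the mannose receptor and a marker of alternative polarization, went from 4.67% to 51.8% over 102.7 kb. The share of Plxnd1 was 7.77% in control and 57.2% after IL-4, that of Ski 14.7% and 53.6%, and that of Fam20c 21.6% and 58.8%. The gene value of Plxnd1 went the other way, from 1.5 to 0.6. All of these had a control share above the 1.23% of Secisbp2l, the highest of the 5 genes. The median control share over the 3189 long genes was 0.856%.

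Most relatives of the 5 genes had no 2-fold difference or no value to compare. Lists of formins, F-BAR proteins, selenocysteine incorporation factors, CLC channels and exchangers, and Gla proteins with the enzymes of gamma-carboxylation held 53 genes besides the 5. Of these, 26 had a value in both libraries, with a median centred log2 ratio of -0.11. By this centred ratio 2 of the 26 were at least 2-fold higher after IL-4, against 8.06% of the 8879 genes, and 3 were at least 2-fold lower. The share of all genes at least 2-fold lower was not counted, so the 3 lower genes are not read as an excess over all genes. Neither count was tested, and the higher and lower genes named below are descriptions only. Pstpip2 and Sephs1, both from 0.5 to 0.2, and Arhgap4, from 1.3 to 0.6, were at least 2-fold lower only without centring. Of the 53 genes, 7 had a transcript in 1 library and 20 had none in either.

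Among formins, 5 of 13 had a value in both libraries and none differed by 2-fold. The paralogue Fmnl1 had a score of 0.3 in both libraries, and Fmnl3 had 1.3 in control and 0.9 after IL-4. Among F-BAR proteins, Fnbp1l, a partner of N-WASP, went from 0.3 to 0.5, which gives 1.12 [0.74 to 1.52] and reaches the 2-fold limit only through centring. Lower values were found for Gas7, from 1.6 to 0.3, Pstpip1, from 0.4 to 0.1, and Fnbp1, from 1.6 to 0.6. The rounding ranges of Fnbp1l, Pstpip1 [-2.79 to -0.84] and Fnbp1 [-1.21 to -0.88] cross the 2-fold limit. The paralogue Fchsd1 had 0.3 in control and 0.2 after IL-4.

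Among the selenocysteine factors, Secisbp2, the paralogue of Secisbp2l, was at 1.0 in control and 0.6 after IL-4, while Sephs2, which makes selenophosphate, was at 0.4 and 0.8. In the CLC list, Clcn6, Clcn7 and Ostm1, which encodes a partner subunit of CLCN7 and is not itself a CLC gene, had a value in both libraries and none differed by 2-fold. Clcn3, a close paralogue of Clcn5, had no control transcript and 5 after IL-4, with a highest score of 0.6, and Clcn4 had none. Prrg2, Prrg3 and Prrg4 had no transcript in either library, and Ggcx, the carboxylase, was at 0.4 in control and 0.3 after IL-4.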

How the data were processed

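GRO-seq libraries of BMDMs, 1 control and 1 after IL-4, were used. Per the labels the authors used BWA 0.7.10, SAMtools 0.1.19 and HOMER 4.2 with mm10; by the study's methods, ENCODE artifact regions were removed and transcripts were called with HOMER in its GRO-seq mode. The deposited score of each transcript is HOMER's value, rounded to 1 decimal; how it is scaled is not given in the sources used here, so depth is unknown and no counting interval can be given.

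Gene spans came from GENCODE M21 (GRCm38) and starts from RefSeq. Overlaps on the same strand (at least 1 base), merged covered length, distances and log2 ratios were computed with Python 3.11.15, pandas 2.3.3 and numpy 2.4.6. The gene value is the highest score by name, and its log2 ratio was centred by subtracting the median gene's, -0.38. With 1 library per group no test or p-value was possible. The code was tested on simulated data. Related genes were named from lists where both libraries had a value and differed by at least 2-fold, or as closest paralogues, and similar genes as the 5 long genes with the largest gain in covered share. The members and lists were chosen with earlier results of these data known. The 24 alternatives are described at the end.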

Additional observations from a re-analysis of the deposited data

How the results depend on the processing

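With 1 library per group no replicate could be left out. No paired analysis was possible because each group has 1 library. Of 24 alternatives, the 11 that give a median over the genes left its sign as it was, 1 of them with only 4 genes. For single genes, the transcript nearest a start gave -0.58 for Clcn5, from transcripts at different places (128.6 kb in control, 130.5 kb after IL-4). All 5 genes stayed at least 2-fold higher in 5 of 7 alternatives; 3 did with the transcript nearest the start, and 4 without simple repeats and low-complexity sequence, where Prrg1 had no control value. The median centred log2 ratio, 2.70, was 4.94 for summed score times length, 4.41 for summed scores and 1.22 for the transcript nearest the start. It was 1.84 for own-strand transcripts inside the gene and 2.32 without centring. Without simple repeats it was 2.28, over the 4 genes that had a value. The median gain in covered share, 13.3 percentage points, was 5.46 with scores of at least 0.3 only. The share of IL-4 transcripts without a control counterpart, 93.1%, was 96.7% when at least 50% of the transcript had to be covered and 85.6% for scores of at least 0.3. The count of genes with a farther last transcript stayed at 4, but by named distance the exception was Secisbp2l in place of Fmnl2, and with scores of at least 0.3 Prrg1 had no control transcript and was counted as farther. Scores of 0.1 to 0.3, with a step of 0.1, limit the precision of single transcripts.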
